A study of Mus musculus with 12 samples.

Results

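A set of 8 genes of fatty acid chain elongation and desaturation was followed across fasted and refed liver of mice with and without lipin 1. They were the elongase genes Elovl1, Elovl2, Elovl3, and Elovl5 and the desaturase genes Fads1, Fads2, Fads3, and Scd2, or 8 of the 22456 genes in the deposited expression table. The set was chosen by symbol with RPKM results of all 4 groups in view (RPKM scales the read number of a gene by transcript length and by library depth), so the RPKM values of these 8 genes are given as a description, and their differences carry no p-value. The rule had no threshold on a value.

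Elongases of the ELOVL family sit in the endoplasmic reticulum and carry out the first step of a cycle that adds a pair of carbons from malonyl-CoA to a fatty acyl-CoA, and desaturases place a double bond in the chain with electrons passed on by cytochrome b5. Fads2, Elovl5, Fads1, and Elovl2 act in turn on the essential fatty acids linoleate and alpha-linolenate, and their products include arachidonate and docosahexaenoate, which fill the phospholipids of liver membranes. Elovl1 and Elovl3 lengthen saturated and monounsaturated chains, and Scd2 makes monounsaturated fatty acids from saturated ones. Sterol regulatory element-binding proteins, LXR, and PPARα are known regulators of several of these genes in liver.

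The libraries came from whole liver of male BALB/cByJ mice aged 2 to 8 months, and 2 genotypes, Lpin1+/+ and Lpin1-/-, were each sampled fasted and refed (4 groups of 3 mice). The Lpin1-/- mice carry the spontaneous fatty liver dystrophy allele in every tissue from birth, and the Lpin1+/+ mice were their wild-type littermates. Fasting lasted 16 hours overnight with mice housed singly, and refed mice received chow for 5 hours after the same fast, so feeding state and hour of collection cannot be told apart. Chow, strain, and sex were shared by all groups.

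Lpin1 itself was between 0.0368 and 0.0597 RPKM in fasted Lpin1-/- liver and between 0.00573 and 0.0237 RPKM in refed Lpin1-/- liver, against 0.726 to 22.0 and 0.784 to 2.92 RPKM in the Lpin1+/+ groups, and its highest value came from 1 library, fasted Lpin1+/+ replicate 1. The summed level of 6 hepatocyte markers was between 32900 and 76200 RPKM in all 12 libraries, and 5 adipocyte markers summed to 0.321 RPKM at most, with 1 of the 5 at 0 throughout. Refed Lpin1+/+ replicate 2 stood apart, with a hepatocyte sum of 32900 RPKM and a sum over 6 Kupffer cell markers of 454 RPKM, against 107 and 64.2 RPKM in the other 2 libraries of that group. Fasted Lpin1-/- replicate 1 had the highest Kupffer cell sum, 572 RPKM, and a sum over 5 cholangiocyte markers of 451 RPKM, against 19.2 to 103 RPKM in the other 11 libraries. Of that 451 RPKM, Spp1 alone gave 430 RPKM, while Epcam was at 10.8 RPKM there and at 1.46 RPKM or less in the others. In whole liver, fewer cells of a type and less RNA per cell cannot be told apart.

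Elovl2 and Elovl5 were lower in Lpin1-/- than in Lpin1+/+ liver in both feeding states, and their promoters are shown. Fads2 was also lower without overlap in both states and has a promoter entry, which is not shown. The sequences are the RefSeq promoter windows (GRCm38.p6) up to the first annotated exon, and capitals mark the E-box CACGTG, the one motif found. The Elovl5 window is chr9:77917115-77917363 on the plus strand and the Elovl2 window chr13:41220406-41220653 on the minus strand.
Elovl5 promoter: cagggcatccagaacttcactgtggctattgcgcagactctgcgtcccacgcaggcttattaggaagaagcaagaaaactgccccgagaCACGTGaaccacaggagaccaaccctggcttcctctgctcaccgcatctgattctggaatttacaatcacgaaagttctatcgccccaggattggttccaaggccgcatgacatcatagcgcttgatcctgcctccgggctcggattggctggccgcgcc
Elovl2 promoter: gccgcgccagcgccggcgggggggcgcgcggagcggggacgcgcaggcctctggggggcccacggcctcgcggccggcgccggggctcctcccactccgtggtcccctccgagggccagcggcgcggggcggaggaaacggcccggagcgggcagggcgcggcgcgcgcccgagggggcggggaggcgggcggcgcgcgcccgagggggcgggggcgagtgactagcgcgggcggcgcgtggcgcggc
Promoter entries existed for 5 of the 8 genes (Elovl1, Elovl2, Elovl5, Fads2, and Fads3), with 7 entries in all. In the 250 bases before the start, on both strands, the E-box CACGTG was in the Elovl5 entry and in 6.02% of 32851 promoters. The sterol regulatory element TCACNCCAC was in none of the 7 entries and in 1.05% of all promoters. The half-site AGGTCA repeated with a spacer of 1 base (DR1) or 4 bases (DR4) was in none of the 7 and in 0.0335% and 0.0152% of all promoters. The 4 motifs do not overlap in these windows, since 1 match was found. These matches describe letters in the window and say nothing of binding. With shares this low over all promoters, absence from 7 entries was likely for any genes, and nothing is read from it.

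On chromosome 19 (GRCm38) lie 5 of the 8 genes. Fads3 (chr19:10041569-10060110, plus strand), Fads2 (chr19:10062765-10101746, minus strand), and Fads1 (chr19:10182888-10196877, plus strand) form one cluster, in which Fads3 and Fads2 are 2.65 kb apart and Fads2 and Fads1 81.1 kb apart. Scd2 (chr19:44293674-44306864) and Elovl3 (chr19:46131897-46135694) lie further along it on the plus strand, 1825 kb from each other. Elovl1 is at chr4:118428093-118432953 and Elovl5 at chr9:77917364-77984519, both on the plus strand, and Elovl2 at chr13:41182381-41220405 on the minus strand. Neighbours in the Fads cluster differed in level by a factor of over 100, since Fads2 averaged 214 RPKM over the 12 libraries and Fads3 1.31 RPKM.

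RPKM is scaled per length, so levels can be set side by side between genes. In fasted Lpin1+/+ liver the order by mean was Elovl5 (286 RPKM), Fads2 (236), Elovl2 (195), Elovl3 (169), Fads1 (95.1), Elovl1 (27.7), Scd2 (1.22), and Fads3 (0.866). The libraries of the first 4 overlapped from each gene to the next, and so did those of Scd2 and Fads3, whereas Elovl3 and Fads1, Fads1 and Elovl1, and Elovl1 and Scd2 did not overlap. Refed Lpin1+/+ liver was led by Fads2 (378 RPKM), whose lowest library was above the highest of Elovl5 (202), and Elovl3 (30.8) was below Elovl1 (47.7), although those 2 overlapped. In fasted Lpin1-/- liver Elovl5 (176 RPKM), Elovl3 (168), and Fads2 (129) led with overlapping libraries, and Elovl2 (57.9) came after Fads1 (60.6), also overlapping. In refed Lpin1-/- liver the first 6 genes ran from 115 RPKM for Fads2 to 51.6 for Elovl1, and no neighbours in that order were separated. Scd2 and Fads3 were the lowest genes in all 4 groups.

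**Figure D1:**
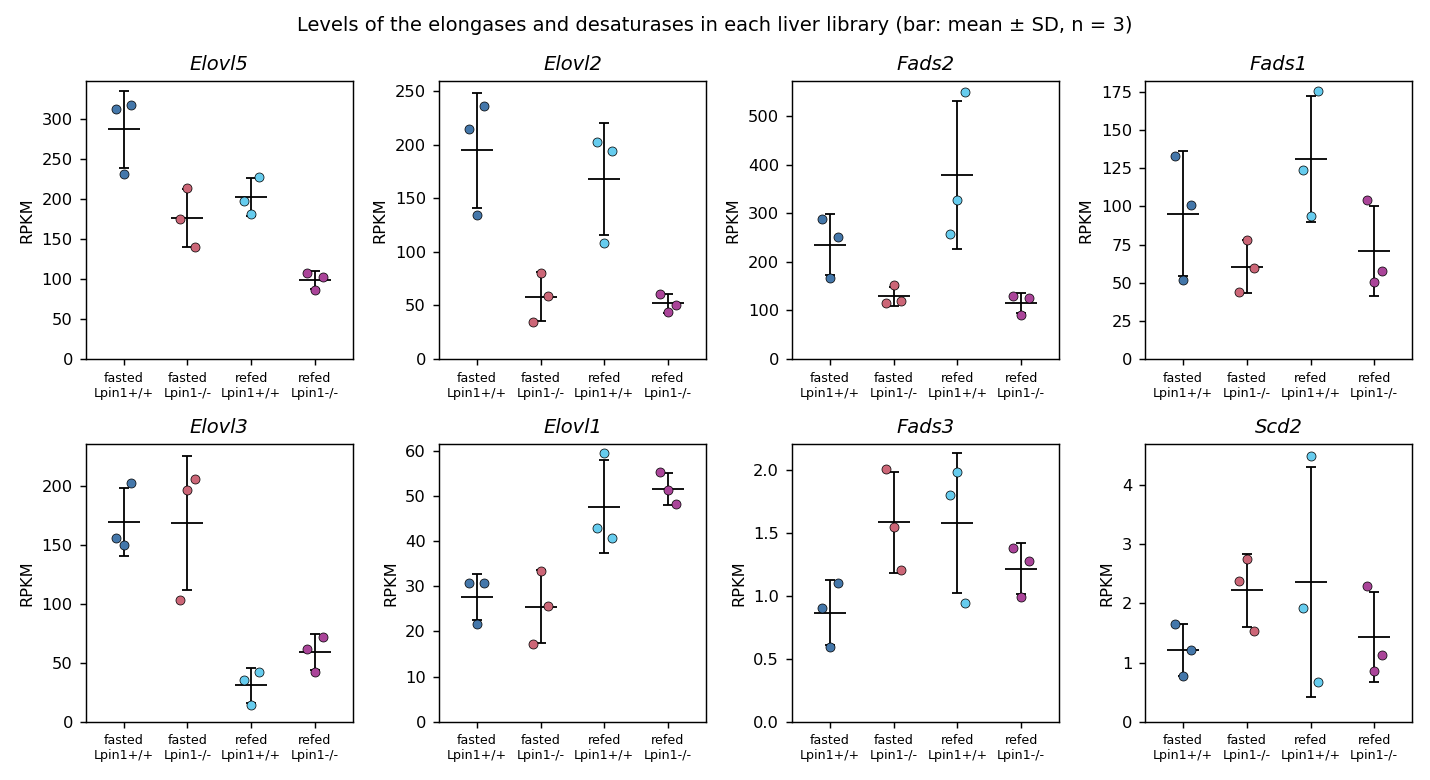
RPKM of the 8 genes in each of the 12 libraries (points, 3 mice per group), with the group mean and SD as bars and a linear axis from 0 for each gene. Elovl2 was at 133.9 RPKM or more in every fasted Lpin1+/+ library and at 80.1 or less in every fasted Lpin1-/- library, and Elovl3 separated the feeding states in both genotypes.

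Elovl2, which lengthens polyunsaturated chains on the way to docosahexaenoate, had the largest genotype difference of the 8 in fasted liver. It measured 215, 134, and 236 RPKM in the fasted Lpin1+/+ mice and 34.6, 80.1, and 59.1 RPKM in the fasted Lpin1-/- mice. The refed values were 203, 108, and 194 RPKM in Lpin1+/+ and 60.8, 43.8, and 50.8 RPKM in Lpin1-/- mice. Every Lpin1-/- library was below every Lpin1+/+ library in both states, while fasted and refed libraries of the same genotype overlapped. On the log2(RPKM + 1) scale the genotype difference was -1.77 ± 0.34 (SE, n = 3 per group) in fasted and -1.64 ± 0.34 in refed liver, and the ratios of the means were 0.297 and 0.308. The feeding differences were -0.22 ± 0.34 in Lpin1+/+ and -0.09 ± 0.34 in Lpin1-/- liver.

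Elovl5, the elongase of the shorter polyunsaturated chains, measured 312, 231, and 316 RPKM in fasted Lpin1+/+ and 175, 213, and 139.6 RPKM in fasted Lpin1-/- liver. In refed liver it was at 197, 181, and 228 RPKM in Lpin1+/+ and at 108, 86.4, and 102 RPKM in Lpin1-/- mice. No library of one genotype overlapped the other in either state, and refed libraries were below all fasted libraries of their own genotype. The genotype difference was -0.71 ± 0.21 in fasted and -1.02 ± 0.21 in refed liver, and the feeding difference -0.49 ± 0.21 in Lpin1+/+ and -0.81 ± 0.21 in Lpin1-/- liver. Its group means thus ran from 286 RPKM in fasted Lpin1+/+ to 98.8 RPKM in refed Lpin1-/- liver. The level of Elovl5 relative to Elovl2 was 1.34 to 1.73 in fasted Lpin1+/+ libraries and 2.36 to 5.06 in fasted Lpin1-/- libraries, without overlap. After refeeding, this ratio lay between 0.974 and 1.68 in the Lpin1+/+ libraries and between 1.77 and 2.01 in the Lpin1-/- libraries.

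Fads2, the delta-6 desaturase that starts the polyunsaturated pathway, was at 288, 167, and 252 RPKM in fasted Lpin1+/+ and at 115, 152, and 119 RPKM in fasted Lpin1-/- liver. Refed Lpin1+/+ mice had 258, 326, and 549 RPKM, and refed Lpin1-/- mice 129, 91.2, and 125 RPKM. The genotypes did not overlap in either state. The difference was -0.84 ± 0.30 in fasted and -1.65 ± 0.30 in refed liver, where the ratio of the means was 0.305. The feeding difference was 0.64 ± 0.30 in Lpin1+/+ and -0.17 ± 0.30 in Lpin1-/- liver, with overlapping libraries in both, and these differed from each other by -0.81 ± 0.42.

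Fads1, the delta-5 desaturase that forms arachidonate, was lower on average in Lpin1-/- liver but with overlapping libraries. Its values were 133, 51.6, and 101 RPKM in fasted Lpin1+/+, 43.7, 78.2, and 59.8 RPKM in fasted Lpin1-/-, 124, 93.4, and 175 RPKM in refed Lpin1+/+, and 104, 50.5, and 57.6 RPKM in refed Lpin1-/- mice. Fasted Lpin1+/+ replicate 2 was below 2 of the 3 fasted Lpin1-/- libraries, and refed Lpin1-/- replicate 1 was above refed Lpin1+/+ replicate 2. The genotype difference was -0.58 ± 0.39 in fasted and -0.90 ± 0.39 in refed liver. Fads2 stood at 1.24 to 3.49 times the level of Fads1 across the 12 libraries, and this ratio overlapped between genotypes in both states. Fasted Lpin1+/+ replicate 2 was the lowest of its group for all 8 genes, and refed Lpin1-/- replicate 2 the lowest of its group for 7 of the 8. The median ratio of a library to the geometric mean of the 12, over genes found in every library, was 0.791 in fasted Lpin1+/+ replicate 2. It was 1.12 and 1.01 in replicates 1 and 3 of that group, so genes at large were also low in replicate 2. Refed Lpin1-/- replicates 1, 2, and 3 were at 1.08, 1.07, and 0.997. The share of all genes lowest in these libraries was not counted.

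Elovl3, an elongase of saturated and monounsaturated chains with a daily rhythm in liver, was the gene that differed most between feeding states. Its fasted values were 156, 149.8, and 203 RPKM in Lpin1+/+ and 103, 197, and 206 RPKM in Lpin1-/- mice, and its refed values 35.8, 13.9, and 42.6 RPKM in Lpin1+/+ and 62.1, 42.3, and 72.2 RPKM in Lpin1-/- mice. All refed libraries were below all fasted ones. The feeding difference was -2.55 ± 0.40 in Lpin1+/+ and -1.47 ± 0.40 in Lpin1-/- liver, and the means changed by ratios of 0.182 and 0.349. Its genotype difference was -0.06 ± 0.40 in fasted and 1.02 ± 0.40 in refed liver, where the libraries of refed Lpin1-/- replicate 2 (42.3 RPKM) and refed Lpin1+/+ replicate 3 (42.6 RPKM) overlapped. Without refed Lpin1+/+ replicate 2, the library with the lowest hepatocyte sum and the lowest Elovl3 level, the refed genotype difference was 0.55. Since the refed mice were sampled at a later hour than the fasted mice, the part of the hour in this difference cannot be told apart from that of food.

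Elovl1, which forms very long saturated chains, was higher in refed liver. It was at 30.6, 21.7, and 30.7 RPKM in fasted Lpin1+/+ and at 17.3, 33.4, and 25.7 RPKM in fasted Lpin1-/- mice, against 42.9, 59.5, and 40.6 RPKM in refed Lpin1+/+ and 55.2, 51.4, and 48.2 RPKM in refed Lpin1-/- mice. The feeding states did not overlap in either genotype, and the genotypes overlapped in both states. Feeding differences were 0.76 ± 0.24 in Lpin1+/+ and 1.03 ± 0.24 in Lpin1-/- liver, and genotype differences -0.15 ± 0.24 in fasted and 0.13 ± 0.24 in refed liver.

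Fads3 and Scd2 were barely expressed. Fads3, which acts on sphingoid bases rather than on the polyunsaturated pathway, was at 0.90, 0.59, and 1.10 RPKM in fasted Lpin1+/+, 2.0, 1.54, and 1.21 in fasted Lpin1-/-, 1.80, 1.98, and 0.94 in refed Lpin1+/+, and 1.38, 0.99, and 1.28 in refed Lpin1-/- mice. Its fasted genotypes did not overlap, with a difference of 0.47 ± 0.21, which was 0.81 with a pseudocount of 0.1 in place of 1. Scd2, the stearoyl-CoA desaturase of brain and other tissues outside liver, was at 1.66, 0.77, and 1.22 RPKM in fasted Lpin1+/+, 2.38, 2.75, and 1.54 in fasted Lpin1-/-, 1.92, 4.49, and 0.68 in refed Lpin1+/+, and 2.30, 0.86, and 1.13 in refed Lpin1-/- mice, and no pair of groups was separated.

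The highest Scd2 value, 4.49 RPKM, and the second highest Fads3 value, 1.98 RPKM, came from refed Lpin1+/+ replicate 2. In that library the Kupffer sum was 454 RPKM and the sum over 6 stellate cell markers 181 RPKM. The highest Fads3 value, 2.0 RPKM, came from fasted Lpin1-/- replicate 1, the library with the highest Kupffer and cholangiocyte sums. Across the Kupffer list, 6 of 6 genes were in the table and none was at 0 in all libraries. The sums ranged from 117 to 240 RPKM in fasted Lpin1+/+, 218 to 572 in fasted Lpin1-/-, 64.2 to 454 in refed Lpin1+/+, and 67 to 164 in refed Lpin1-/- liver. The stellate sums ranged from 66 to 156 RPKM in fasted Lpin1+/+ and from 193 to 279 RPKM in fasted Lpin1-/- liver, without overlap, and from 68.2 to 181 RPKM in refed Lpin1+/+ and from 160 to 205 RPKM in refed Lpin1-/- liver, with overlap. In the library with the stellate sum of 279 RPKM, 1 marker alone reached 264 RPKM, so that sum rested mostly on 1 gene. The part of other cell types in the Fads3 and Scd2 values was not tested. Without refed Lpin1+/+ replicate 2, the Scd2 genotype difference in refed liver was 0.09, in place of -0.35 ± 0.38 with it.

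Of the 69-base windows in annotated Scd2 transcripts, 2.0% also occurred in transcripts of another gene of the Scd, Elovl, or Fads families, and none of those of the other 7 genes did (69 bases is the read length). Scd1 is the close relative of Scd2, and it stood at 5.11 to 427 times the level of Scd2. The replicates had the same order by Scd1 and by Scd2 in fasted Lpin1+/+ and in refed Lpin1-/- liver, and the highest value of both was in replicate 2 of fasted Lpin1-/- liver, whereas in refed Lpin1+/+ liver the library with the highest Scd1 level had the lowest Scd2 level. The part of Scd1 reads in the Scd2 values was not tested. The 8 genes were covered by an estimated 230 reads or more in every library for Fads3, 430 for Scd2, and 3200 for the other 6.

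For all 8 genes together, differences past an adjusted p of 0.05 in limma are given as counts beside the share of all 11507 tested genes past the same threshold, from which nothing is read, since the same values chose the set. In fasted liver, 2 of 8 passed between genotypes (Elovl2 and Elovl5), against 18.8% of all genes, and in refed liver 3 of 8 (Elovl2, Elovl5, and Fads2), against 6.67%. Between feeding states, 1 of 8 passed in Lpin1+/+ liver (Elovl3), against 1.72% of all genes, and 3 of 8 in Lpin1-/- liver (Elovl1, Elovl3, and Elovl5), against 20.7%. The groups did not overlap for 4 of 8 genes between genotypes in fasted liver (32.9% of all genes), for 3 in refed liver (33.9%), for 3 between feeding states in Lpin1+/+ liver (18.1%), and for 3 in Lpin1-/- liver (46.8%). The difference between the feeding responses passed in limma for none of the 8, against 1.28% of all genes. Its unadjusted p was under 0.05 for 1 of the 8, against 2082 of all 11507 genes. Median differences over the 8 were -0.36 in fasted and -0.62 in refed liver between genotypes, against -0.14 and -0.07 over all genes, and 0.45 in Lpin1+/+ and -0.19 in Lpin1-/- liver between feeding states, against 0.18 and 0.25 over all genes. The contrasts share libraries in pairs, because each group enters both a genotype and a feeding contrast.

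**Figure D2:**
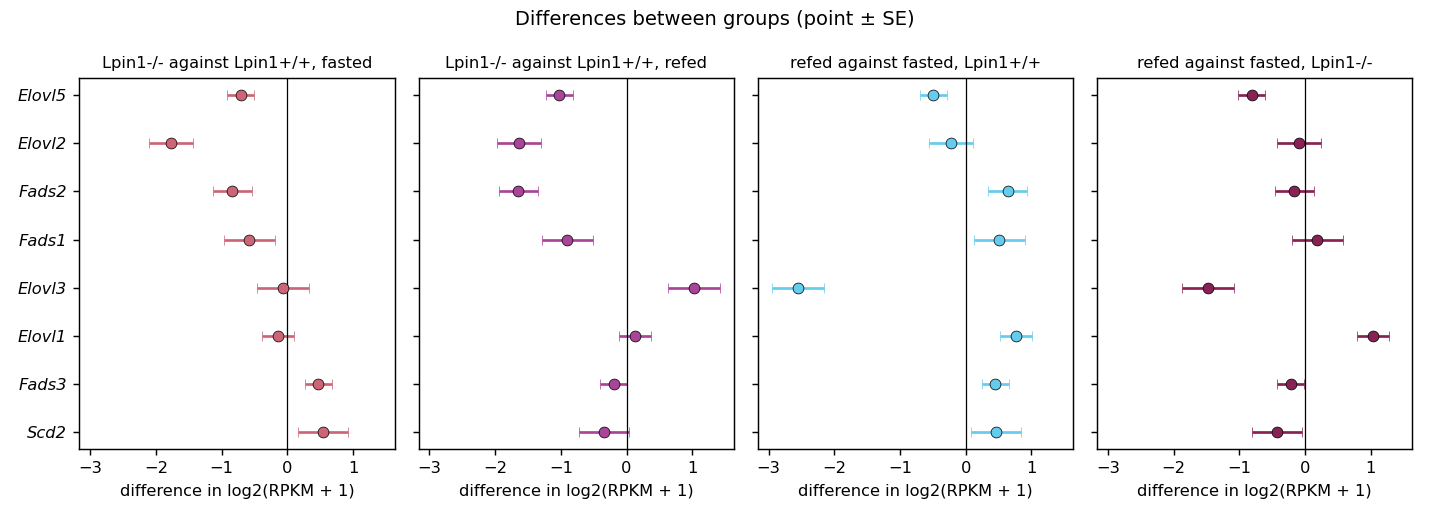
Differences between groups for the 8 genes on the log2(RPKM + 1) scale (points, with SE as bars), in the 4 contrasts of 3 against 3 libraries. Elovl2 lay at -1.77 and -1.64 in the genotype contrasts and near 0 in the feeding contrasts, and Elovl3 lay at -2.55 and -1.47 in the feeding contrasts.

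Several of these calls were lost when 1 library was left out. Counts over all genes moved as well. Between genotypes in refed liver 767 genes passed, and 242 to 513 on leaving out 1 refed library. In fasted liver 2168 passed, and 1037 to 2299 on leaving out 1 fasted library. A lost call therefore does not show that the difference came from the library left out. The alternatives refit the values that chose the set, so their counts describe the calls and lend none of them support. Elovl2 in fasted liver, Fads2 in refed liver, and Elovl1 in Lpin1-/- liver passed in all 18 alternative settings. Elovl5 in fasted liver passed in 9 of 18, and was lost on leaving out any one of fasted Lpin1+/+ replicates 1 and 3, fasted Lpin1-/- replicates 1 and 3, refed Lpin1+/+ replicate 1, and refed Lpin1-/- replicate 3, with differences of -0.86 to -0.55 over all settings. In refed liver, Elovl2 and Elovl5 each lost the call without refed Lpin1+/+ replicate 1 or 3 or refed Lpin1-/- replicate 2 or 3 (differences of -1.93 to -1.48 and -1.10 to -0.91 over all settings), and Elovl2 lost it also with no filter on low values. Elovl3 lost it in Lpin1+/+ liver without fasted Lpin1+/+ replicate 2 or 3 (-2.85 to -2.08), and in Lpin1-/- liver without fasted Lpin1-/- replicate 2 or 3 or refed Lpin1-/- replicate 1 or 2 (-1.79 to -1.25) and with no filter. Elovl5 between feeding states of Lpin1-/- liver lost it without fasted Lpin1-/- replicate 1 or 2 or refed Lpin1-/- replicate 2 or 3 (-1.06 to -0.66). Conversely, Fads2 in fasted liver passed without fasted Lpin1+/+ replicate 2 or refed Lpin1+/+ replicate 3 (-1.07 to -0.68 over all settings). None of the called differences changed sign in any setting.

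Exon use was a readout that the choice of the 8 genes had not drawn on. The deposited tables of skipped-exon events gave inclusion counts and skipping counts for each library. Inclusion counts hold reads on the exon itself as well as reads across its junctions. The ratio of the length-scaled counts was compared between genotypes within each feeding state. The 8 genes had 53 events in fasted liver, all tested, and 68 in refed liver, of which 64 were tested. They belonged to 6 genes, and Fads3 and Scd2 had none. In fasted liver 1 of 53 passed, against 11.3% of all 69644 tested events. In refed liver 0 of 64 passed in limma, against 0.97% of all 65231 tested events. An unadjusted p under 0.05 was found for 12 of the 64, against 9301 of the 65231. Events of the same gene share reads, and the rarer form averaged under 5 counts in 41 of the 53 fasted and 51 of the 64 refed events.

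The event that passed was the inclusion of a 160-base exon of Elovl5 in fasted liver, at chr9:77978649-77978808 (GRCm38, plus strand), between the exons that end at base 77976919 and start at base 77979825. No exon of Elovl5 in GENCODE M21 overlaps it. Inclusion counts were 22, 12, and 6 in the Lpin1+/+ libraries and 112, 73, and 39 in the Lpin1-/- libraries, while skipping counts were 3525, 2410, and 3502 against 1759, 2132, and 1518. The Lpin1-/- libraries thus held more reads of the exon, in absolute number as well, although they held fewer reads that skip it. Since inclusion counts take in reads that lie within the 160 bases, they do not tell spliced from unspliced RNA here. Inclusion was 0.186%, 0.148%, and 0.0511% in Lpin1+/+ liver (mean 0.128% ± 0.07, SD, n = 3) and 1.86%, 1.01%, and 0.76% in Lpin1-/- liver (mean 1.21% ± 0.58), without overlap. The difference of the log2 ratios was 3.29 ± 0.80 (limma, adjusted p = 0.0188 over all tested events). Leaving out the third Lpin1+/+ library in the order of the table, or the first or the second Lpin1-/- library, gave adjusted p-values of 0.089, 0.0814, and 0.0697 with differences of 2.75 to 3.37. This exon was not listed in the refed table, so refed liver is not analysed here for it.

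The flanking coding sequences show what the exon separates. The last 60 bases of the exon before it (chr9:77976860-77976919) and the first 60 bases of the exon after it (chr9:77979825-77979884), both on the plus strand and read from the GENCODE M21 transcripts, are as follows.
Elovl5 upstream exon: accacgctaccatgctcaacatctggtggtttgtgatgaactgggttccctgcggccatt
Elovl5 downstream exon: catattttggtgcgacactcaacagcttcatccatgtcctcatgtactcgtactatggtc
The junction follows 496 coding bases, so it falls after the first base of a codon, and the length of the exon leaves a remainder of 1 when divided by 3.

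Elovl2 exon 4 is shown because it was skipped in a small share of reads in both feeding states. It is a coding exon of 78 bases, or 26 codons, at chr13:41191888-41191965 on the minus strand, and a shorter form of 67 bases (capitals) ends 11 bases earlier.
Elovl2 exon 4: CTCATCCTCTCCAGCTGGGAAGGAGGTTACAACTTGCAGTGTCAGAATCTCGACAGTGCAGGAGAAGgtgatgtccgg
Inclusion of the 78-base form was 99.0%, 99.8%, and 98.5% in fasted Lpin1+/+ and 97.7%, 98.2%, and 97.1% in fasted Lpin1-/- liver. In refed liver it was 99.5%, 99.3%, and 99.2% in Lpin1+/+ and 98.2%, 98.9%, and 95.5% in Lpin1-/- mice. Every Lpin1-/- library was below every Lpin1+/+ library in both states, and the log2 ratio differences of -1.66 ± 0.82 and -1.67 ± 0.71 did not pass in limma (adjusted p = 0.224 and 0.321). Skipping was counted in 3 to 36 reads per fasted library and 5 to 27 per refed library.

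The best covered other events did not pass. For Elovl5, 4 of 14 fasted events had an unadjusted p under 0.05, the one that passed among them. Inclusion of its exon at chr9:77957141-77957206 averaged 99.7% in fasted Lpin1+/+ and 98.2% in fasted Lpin1-/- liver (limma adjusted p = 0.116). Inclusion of its exon at chr9:77921876-77922021 averaged 0.555% in refed Lpin1+/+ and 0.266% in refed Lpin1-/- liver (adjusted p = 0.77). An Elovl2 exon at chr13:41197267-41197371 had a mean inclusion of 1.03% in fasted Lpin1+/+ and 1.44% in fasted Lpin1-/- liver (adjusted p = 0.603 in limma), and 0.984% and 0.989% in refed liver (adjusted p = 0.906). Inclusion of an Elovl1 exon at chr4:118429696-118429830 averaged 3.03% and 1.38% in fasted liver (adjusted p = 0.238). An Elovl1 exon at chr4:118430715-118430905 averaged 98.0% and 98.6% in refed liver (adjusted p = 0.834). Inclusion of a Fads2 exon at chr19:10070272-10070348 averaged 99.7% and 99.6% in fasted liver (adjusted p = 0.755) and 99.9% and 99.2% in refed liver (adjusted p = 0.194). A Fads1 exon at chr19:10189554-10189676 was included at 0.222% and 0.104% in fasted liver (adjusted p = 0.454) and at 0.299% and 0.179% in refed liver (adjusted p = 0.702). Its rarer form averaged 4.83 counts in fasted and 7.5 in refed liver. The best covered Elovl3 events had a rarer form of 3.33 counts on average in fasted and 0.5 in refed liver.

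**Figure D3:**
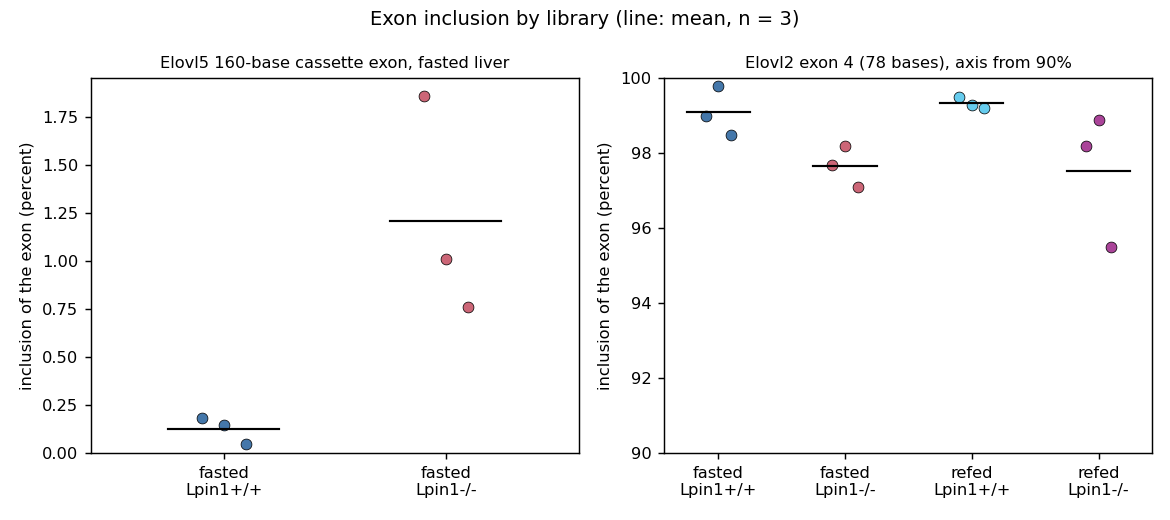
Inclusion in percent of the 160-base Elovl5 exon in fasted liver (left, axis from 0) and of Elovl2 exon 4 in fasted and refed liver (right, axis from 90), 1 point per library and a line at the mean of 3. The 3 fasted Lpin1-/- points for Elovl5 lie at 0.76% or more and the 3 Lpin1+/+ points at 0.186% or less, and for Elovl2 the Lpin1-/- points lie below the Lpin1+/+ points of the same state.

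The 8 enzymes work with partners, and 53 further genes in 6 lists were read from the same fit. The lists were other elongases and desaturases, partners of elongation and desaturation, acyl-CoA supply, peroxisomal shortening of long chains, phospholipid remodelling, and regulators. Of the 53, 45 were expressed at a mean of 0.5 RPKM or more and tested. The 8 left out were Elovl4, Elovl7, Scd3, Scd4, Hacd4, Acsl6, Mboat1, and Mboat2. The lists were chosen with earlier results of these data known, so their p-values are not independent of that choice. In fasted liver 4 of 45 rose and 12 fell in Lpin1-/- against Lpin1+/+ mice, where 5.63% and 13.2% of all genes did. In refed liver 2 rose and 7 fell, where 2.6% and 4.07% of all genes did. Between feeding states, 7 rose and 3 fell on refeeding in Lpin1-/- liver, where 17.8% and 2.92% of all genes did. In Lpin1+/+ liver none of the 45 passed in limma, where 1.52% of all genes rose and 0.2% fell. An unadjusted p under 0.05 was found for 13 of the 45, against 1594 of all 11507 genes. The median difference of the 45 was -0.32 in fasted and -0.38 in refed liver between genotypes, against -0.14 and -0.07 over all genes.

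Among the other elongases and desaturases, Scd1 went the opposite way to Elovl2, Elovl5, and Fads2. Scd1, the main delta-9 desaturase of liver, was at 177, 39.2, and 50.3 RPKM in fasted Lpin1+/+ and 311, 775, and 468 RPKM in fasted Lpin1-/- mice, and at 9.80, 51.1, and 94.3 RPKM in refed Lpin1+/+ and 969, 367, and 379 RPKM in refed Lpin1-/- mice. It was higher in every Lpin1-/- library of each state, by 2.76 ± 0.78 in fasted (adjusted p = 0.0295) and 3.77 ± 0.78 in refed liver (adjusted p = 0.0172). The fasted call was lost without fasted Lpin1+/+ replicate 2 or 3 or fasted Lpin1-/- replicate 2 or 3 (adjusted p up to 0.106), with no filter on low values (0.0953), and with the replicate block (0.0561). The refed call was lost without refed Lpin1-/- replicate 1 (adjusted p = 0.075) and with no filter (0.0602). Elovl6, which lengthens palmitate to stearate, was at 3.93 and 4.23 RPKM on average in fasted and 9.0 and 10.6 RPKM in refed liver of the Lpin1+/+ and Lpin1-/- mice. Its genotype differences were 0.05 ± 0.33 (adjusted p = 0.928) and 0.15 ± 0.33 (adjusted p = 0.828). It rose on refeeding by 1.14 ± 0.33 in Lpin1-/- liver (adjusted p = 0.031) and differed by 1.05 ± 0.33 in Lpin1+/+ liver without passing (adjusted p = 0.165). The Lpin1-/- call was lost without fasted Lpin1-/- replicate 1 or 3 or refed Lpin1-/- replicate 2 or 3 (adjusted p 0.0564 to 0.126). It was also lost with no filter on low values (0.0734), with median-ratio rescaling (0.0648), and with only the 6 libraries compared (0.0587). Fads6, a further member of the desaturase family, fell to 6.33 from 17.2 RPKM in fasted Lpin1-/- liver (-1.22 ± 0.31, adjusted p = 0.0193) and rose to 25.1 RPKM in refed Lpin1-/- liver (1.80 ± 0.31, adjusted p = 0.00326). The fasted call was lost without fasted Lpin1+/+ replicate 1 or 3 or fasted Lpin1-/- replicate 1 (adjusted p 0.0504 to 0.0617), with no filter (0.0522), and with only the 6 libraries compared (0.058).

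The 9 genes of the peroxisomal list had lower means in Lpin1-/- liver. This list holds the enzymes and transporters that shorten very long chains, a step that also completes docosahexaenoate. In fasted liver 7 of 9 fell in Lpin1-/- mice, where 13.2% of all genes did, and all 9 had a difference below 0. In refed liver 4 of 9 fell, among them Acaa1a, Acaa1b, and Ehhadh, where 4.07% of all genes did, and all 9 were below 0. The medians were -1.18 and -0.83, against -0.14 and -0.07 over all genes. The share of all genes below 0 was not counted. Since the list was chosen with earlier results of these data known, these counts are a description. Of the 7 fasted calls, 3 were lost in alternatives. The call for Acaa1b (limma adjusted p = 0.0475) was lost in 12 of 18, of which 9 leave out 1 library (any but fasted Lpin1+/+ replicate 1 and refed Lpin1+/+ replicates 2 and 3, adjusted p up to 0.186). The call for Hsd17b4 (limma adjusted p = 0.0259) was lost in 7 of 18, among them without fasted Lpin1+/+ replicate 1 or 3 or fasted Lpin1-/- replicate 1 or 2 (adjusted p 0.0586 to 0.0825). The call for Acaa1a (limma adjusted p = 0.017) was lost in 4 of 18, among them without replicate 3 of fasted Lpin1+/+ or of fasted Lpin1-/- liver (adjusted p up to 0.0785). Ehhadh, a bifunctional enzyme of the peroxisome, averaged 219 RPKM in fasted Lpin1+/+ and 52.4 RPKM in fasted Lpin1-/- liver (-2.04 ± 0.27, adjusted p = 0.000854), and 244 and 64.6 RPKM in refed liver (-1.82 ± 0.27, adjusted p = 0.00423). Abcd2, a transporter of very long chains into peroxisomes, fell to 0.376 from 3.70 RPKM in fasted liver (-1.72 ± 0.24, adjusted p = 0.00121), and Decr2, a peroxisomal dienoyl-CoA reductase, to 49.2 from 128 RPKM (-1.39 ± 0.26, adjusted p = 0.00415). The thiolase gene Acaa1b fell to 131 from 624 RPKM in refed liver (-2.23 ± 0.38, adjusted p = 0.00792). The call for Acaa1a in refed liver (limma adjusted p = 0.0132) was lost without refed Lpin1+/+ replicate 3 (0.0504) or refed Lpin1-/- replicate 1 (0.0539). The calls of the 5 differences given above for Ehhadh, Abcd2, Decr2, and refed Acaa1b held in every alternative in which the gene was tested.

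Acyl-CoA supply split by gene. Acsl1, the main acyl-CoA synthetase of liver, fell to 101 from 362 RPKM in fasted Lpin1-/- liver (-1.80 ± 0.46, adjusted p = 0.0198), a call lost without fasted Lpin1+/+ replicate 1 or 3 or fasted Lpin1-/- replicate 1 (adjusted p 0.0568 to 0.0743) and with no filter on low values (0.0631). Acsl3, a synthetase of the endoplasmic reticulum and lipid droplets, rose to 5.27 from 2.09 RPKM in fasted liver (1.04 ± 0.20, adjusted p = 0.0055) and fell to 1.35 from 4.59 RPKM in refed liver (-1.23 ± 0.20, adjusted p = 0.00691). Acaca, which makes the malonyl-CoA that elongases use, rose on refeeding in Lpin1-/- liver, to 6.66 from 0.713 RPKM (2.16 ± 0.31, adjusted p = 0.00146). The partner list, with 8 genes tested, also holds cytochrome b5 genes. One of these, Cyb5b, fell in fasted Lpin1-/- liver to 24.4 from 57.6 RPKM (-1.20 ± 0.24, limma adjusted p = 0.00693). Cyb5b rose on refeeding in Lpin1-/- liver (1.21 ± 0.24, adjusted p = 0.00671). Whether Cyb5b passes electrons to these desaturases was not tested. Cyb5a, a cytochrome b5 gene at a far higher level (1997 and 1603 RPKM in fasted Lpin1+/+ and Lpin1-/- liver), did not pass between genotypes. Its differences were -0.29 ± 0.34 in fasted (limma adjusted p = 0.597) and -0.38 ± 0.34 in refed liver (adjusted p = 0.556). No partner passed between genotypes in refed liver by limma, with 4 of 8 at an unadjusted p under 0.05, against 2585 of all 11507 genes. Of 5 tested phospholipid remodelling genes, Agpat3 fell in fasted Lpin1-/- liver (-0.92 ± 0.27, adjusted p = 0.036), a call lost in 8 of 18 alternatives, 5 of which leave out 1 library (fasted Lpin1+/+ replicate 1 or 3, fasted Lpin1-/- replicate 1, refed Lpin1-/- replicate 2 or 3, adjusted p 0.0535 to 0.109), and none passed in refed liver, with 0 at an unadjusted p under 0.05.

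The 12 regulators were all tested. Insig1, an anchor of the SREBP machinery, rose to 114 from 24.8 RPKM in fasted Lpin1-/- liver (2.07 ± 0.38, adjusted p = 0.00382), fell to 10.3 from 75.7 RPKM in refed liver (-2.74 ± 0.38, adjusted p = 0.0026), and fell on refeeding in Lpin1-/- liver (-3.21 ± 0.38, adjusted p = 0.000664). Insig2, its paralog, rose to 910 from 247 RPKM in refed Lpin1-/- liver (1.95 ± 0.46, adjusted p = 0.0293). That call was lost with replicate numbers as a block (adjusted p = 0.0597), with no filter on low values (0.0817), and without refed Lpin1+/+ replicate 2 or 3 or any one of the 3 refed Lpin1-/- libraries (adjusted p 0.0602 to 0.11). Srebf2, the SREBP gene of sterol synthesis, fell to 5.17 from 14.4 RPKM in refed Lpin1-/- liver (-1.33 ± 0.27, adjusted p = 0.016), a call lost without refed Lpin1+/+ replicate 1 or refed Lpin1-/- replicate 2 or 3 (adjusted p 0.0563 to 0.0698). Mlx, the partner of the carbohydrate-response factor ChREBP, rose on refeeding in Lpin1-/- liver (1.26 ± 0.23, adjusted p = 0.00432), and the coactivator gene Ppargc1b fell (-1.56 ± 0.33, adjusted p = 0.00845). Others past the threshold were Ppargc1b (higher) and the LXRα gene Nr1h3 (lower) in fasted Lpin1-/- liver, and the ChREBP gene Mlxipl and the elongation partner Hacd3 (both higher) on refeeding in Lpin1-/- liver, and each of these 4 calls was lost on leaving out single libraries. For Ppargc1b (limma adjusted p = 0.02) these were replicates 2 and 3 of fasted Lpin1+/+ and of fasted Lpin1-/- liver, with adjusted p up to 0.0827, and the call was lost with no filter on low values (0.0599) and with only the 6 libraries compared (0.0803). For Nr1h3 (limma adjusted p = 0.0364) these were the same 4 libraries, refed Lpin1+/+ replicate 1, and refed Lpin1-/- replicate 3, with adjusted p up to 0.122, and the call was lost with median-ratio rescaling (0.129), no filter (0.0747), the replicate block (0.0565), and only the 6 libraries compared (0.068). For Mlxipl (limma adjusted p = 0.0138) these were fasted Lpin1-/- replicate 1 and refed Lpin1-/- replicate 2, with adjusted p of 0.0575 and 0.0596. For Hacd3 (limma adjusted p = 0.0358) these were all refed Lpin1-/- libraries, replicates 1 and 2 of fasted Lpin1-/-, and replicate 3 of fasted Lpin1+/+ liver, with adjusted p up to 0.131, and the call was lost with median-ratio rescaling (0.316), the replicate block (0.0642), and only the 6 libraries compared (0.064). The feeding response itself differed between genotypes for 2 of the 45 genes, Insig1 (-4.81 ± 0.53, adjusted p = 0.00332) and Acsl3 (-2.26 ± 0.28, adjusted p = 0.00664), both lower, where 0.487% of all genes were lower and 0.791% higher.

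**Figure D4:**
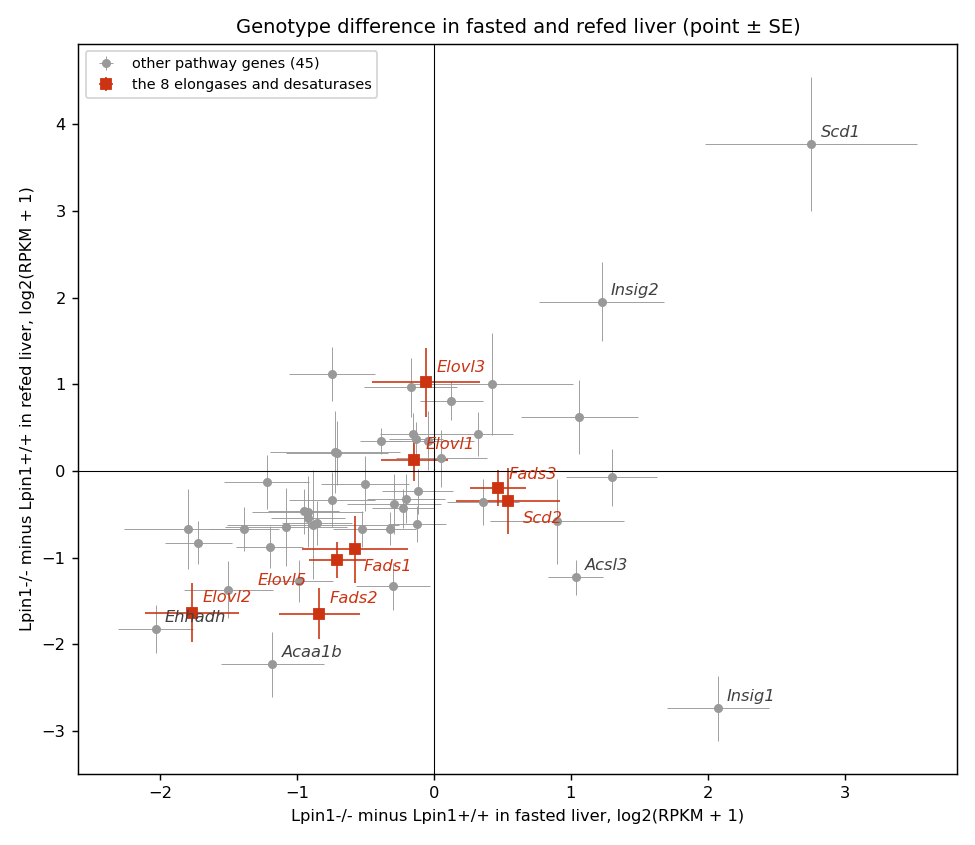
Difference of Lpin1-/- from Lpin1+/+ mice in fasted (horizontal) and refed liver (vertical) on the log2(RPKM + 1) scale with SE, for the 8 genes (squares) and 45 other pathway genes (circles), the 2 axes sharing no library. Elovl2, Elovl5, Fads1, and Fads2 lie at the lower left with Ehhadh and Acaa1b, Scd1 lies at 2.76 and 3.77, and Insig1 and Acsl3 lie above 0 in fasted and below 0 in refed liver.

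**Figure D5:**
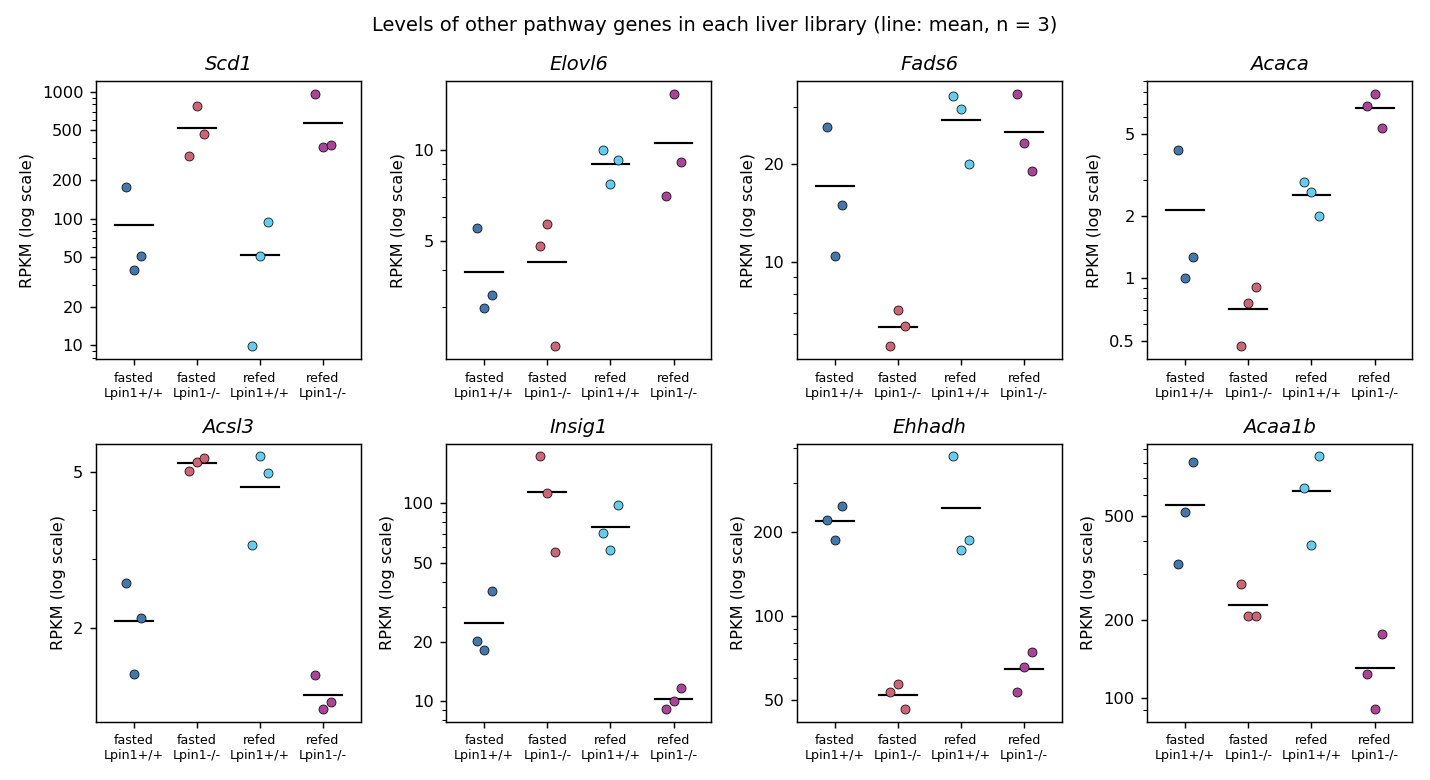
RPKM on a log axis of 8 other pathway genes in each of the 12 libraries (points), with the mean of 3 as a line. Scd1 is higher in all Lpin1-/- than in all Lpin1+/+ libraries of the same state, Ehhadh is lower in all of them, and the mean of Insig1 is highest in fasted and lowest in refed Lpin1-/- liver.

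The genes whose profile was most like that of each of the 8 were found among 6743 other genes with a mean of 5 RPKM or more, by the root mean square difference between log2(RPKM + 1) values centred on their mean over the 12 libraries. For Elovl2 they were Klkb1 (0.259), plasma prekallikrein, and Dpys (0.271), dihydropyrimidinase, where the median over all genes was 0.979. For Elovl5 they were Nt5dc2 (0.285) and Cyp4v3 (0.292), and for Fads2 Atp9a (0.299) and Fam102a (0.304). For Fads1 they were Larp1b (0.203) and Pla2g6 (0.205), a phospholipase gene. Elovl1 was nearest to Map7d1 (0.162) and Arfip2 (0.20). The nearest genes of Elovl3, Adck3 (0.584) and Clpx (0.601), lay further from it in absolute distance. Its own profile also spread most, at 1.16 from its mean, against 0.579 for Elovl5 and 0.269 for Fads3. These distances therefore do not rank how closely the 8 genes were matched. Fads3 was nearest to Vamp3 (0.134) and Smad2 (0.164), and Scd2 to App (0.221) and Necap2 (0.243). None of the nearest genes of one member was the nearest of another.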

How the data were processed

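RNA-Seq of 12 mouse liver libraries was analysed, grouped by the titles that the labels give. Per the labels, TruSeq stranded libraries were sequenced as 69-base pairs to about 150 M reads each. The authors aligned reads to GRCm38 (Ensembl release 84) with HISAT2 2.0.5 and counted them per gene with HTSeq 0.6.0 (the submitters' processing notes also name DESeq2 1.20.0), and deposited RPKM for 22456 genes. The authors also deposited rMATS tables of inclusion and skipping counts per library, with the lengths of both forms and with p-values, false discovery rates, and inclusion differences of their own comparisons, which were not used. The RPKM file gives no depth. Low values were whole multiples of what 1 read is worth, and ratios of RPKM under 0.05 placed the libraries at 0.866 to 1.157 times the depth of fasted Lpin1+/+ replicate 1, or about 94.4 to 126 M counted reads with GENCODE M21 exon lengths.

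RPKM was tested, in place of the count test of the study, on the log2(RPKM + 1) scale, keeping the 11507 genes that averaged 0.5 or more. All 12 libraries entered 1 model in limma 3.58.1 under R 4.3.3, with the variance trend on and 5 contrasts, adjusted over all genes by Benjamini and Hochberg at 0.05. A fold change on this scale understates that of low genes. Exon events with 10 counts or more in every library were tested as log2 length-scaled ratios with 0.5 added, over the 6 libraries of a state. These tables list libraries without replicate numbers. Both steps were run on simulated data with known changes, and the recovery is not given here. The simulated noise was independent between genes or events and held no shift of a whole library, so such shifts were not covered. The genes, the lists, and the motifs were chosen with earlier results of these data known. Named pathway genes were Scd1, Elovl6, and, per contrast, the 2 in each direction with the largest difference among those that passed without overlap, and others were named after their values were seen. Exon events named were those that passed, and the event with the highest count of its rarer form for each gene; Elovl2 exon 4 was added after its values were seen. Positions come from GENCODE M21 and promoters from RefSeq (GRCm38.p6), both other than the annotation the authors counted with.

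Replicate numbers are shared between groups, with no litter or day named for them. Deviations from the group means correlated between same-numbered libraries at 0.186, 0.297, and 0.162 for the genotypes in refed liver, which met the criterion of over 0.1 for every pair, and below 0.1 for at least 1 pair in the other 3 contrasts. Blocked values are therefore given for the refed genotype contrast where they change a call. Alternatives were another pseudocount (0.1), no filter, a mean of 5 RPKM, median-ratio rescaling, the replicate block, the 6 libraries compared alone, each library left out, and for events 20 counts or 1 added. Values of 1 pathway gene are not reported here by name, and it stays in the counts.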

Additional observations from a re-analysis of the deposited data

Results flagged for a closer look

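The response to refeeding differed between the genotypes for 2 pathway genes, by the interaction term of the limma fit. For Insig1 the refed minus fasted difference of Lpin1-/- liver less that of Lpin1+/+ liver was -4.81 on the log2(RPKM + 1) scale, and for Acsl3 it was -2.26. Insig1 was at 18.2 to 36.0 RPKM in fasted and 58.0 to 98.2 RPKM in refed Lpin1+/+ libraries, and at 56.4 to 172 RPKM in fasted and 9.13 to 11.7 RPKM in refed Lpin1-/- libraries. Acsl3 was at 1.53 to 2.60 RPKM in fasted and 3.27 to 5.50 RPKM in refed Lpin1+/+ libraries, and at 5.04 to 5.45 RPKM in fasted and 1.24 to 1.52 RPKM in refed Lpin1-/- libraries. No such difference passed for the 8 elongases and desaturases. Dixon's criterion for outlying samples was not applied to groups of 3 libraries.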

How the results depend on the processing

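With the replicate block, 1 of the 8 genes passed between genotypes in fasted liver in place of 2, since Elovl5 was lost, and the same count of 1 was found with only the 6 libraries compared. With only the 6 libraries compared, 0 passed between feeding states in Lpin1+/+ liver in place of 1. Leaving out 1 library gave 1 to 3 between genotypes in fasted liver (2 with all), 1 to 3 in refed liver (3 with all), 0 to 1 between feeding states in Lpin1+/+ liver (1 with all), and 1 to 3 in Lpin1-/- liver (3 with all). Of the 45 other pathway genes, 16 passed between genotypes in fasted liver, 8 without a filter on low values, 9 with only the 6 libraries compared, and 7 to 16 on leaving out 1 library. Between feeding states in Lpin1+/+ liver 0 passed, 1 with a mean of 5 RPKM or more, and 0 to 3 on leaving out 1 library. For the difference between the feeding responses 2 passed, and 1 with a mean of 5 RPKM or more. Exon events of the 8 genes that passed in fasted liver were 1, 3 with 1 added to each count, and 0 to 3 on leaving out 1 library. The other counts stayed within 1.5 times, and no called difference reversed. Same-numbered libraries correlated at -0.474 to -0.226 between genotypes in fasted liver, so the numbers do not pair the samples there, and the block changed no other call of the 8 genes. Rescaling moved the median of all genes from 0.185 to -0.0004 between feeding states in Lpin1+/+ liver and from 0.25 to 0.059 in Lpin1-/- liver, and it left the calls of the 8 genes as they were, except that Elovl5 was lost and Fads3 passed in fasted liver. The depth per library is an estimate. The causes of these shifts were not tested.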
